A study of Homo sapiens with 12 samples.

Results

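The segment of chromosome 14 from 20 to 40 Mb (hg19) was examined in 6 FoxK1 peak lists from HepG2 cells. Its members were every deposited peak with its summit between these bounds, and peaks that overlapped by at least 1 bp were merged into regions. This gave 2429 peaks in 953 regions, of 223205 peaks in 68127 regions in all, or 1.40% of the regions. The segment was selected on measured values, because its peaks had a high background and it was crowded with regions called in replicate 3 libraries alone. The differences between the segment and other DNA are therefore given as a description, with no test, and insulin was compared with no insulin by test. The comparison stretch was the same chromosome from 50 Mb on, 57 Mb long, with 5492 peaks in 1618 regions.

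HepG2 is an established line from a human liver tumour, labelled as liver. Chromatin was precipitated with an antibody to FoxK1 from 3 samples given insulin (100 nM, 20 min) and from 3 untreated samples. All cells had been kept without serum for 16 h before that. The 6 input samples were not analysed here. The labels number the samples 1 to 3 within each treatment but do not say that they came from separate cultures, so p-values measure the spread between these samples, which may be technical.

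FoxK1 is a forkhead transcription factor, and insulin signalling is known to change where in the cell it is found. In a peak list the fold of a site is its fragment pile-up over the background estimated around it. A stretch of DNA that gives more fragments everywhere therefore raises the pile-up and the background together, and the fold need not move. The proximal long arm of chromosome 14 carries gene-dense and gene-poor stretches. No gene was assigned to a region here, because the annotation at hand is of another genome build. HepG2 cells carry an abnormal set of chromosomes, but DNA copy number was not measured in the data used here and its part in the values below was not tested.

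The replicate 3 libraries of both treatments stood apart from the other 4 libraries before any comparison. Their lists were the shortest, with 27503 peaks in insulin replicate 3 and 26082 in untreated replicate 3, against 31668 to 48208 in the others. In these 2 lists 29.7% and 33.2% of all peaks had the lowest background of the list, a floor of 2.66 and 3.39 fragments. In the other lists 0.622% to 1.29% of peaks lay at the lowest value. The number of reads per library is unknown, so a call missing from a list may reflect its depth.

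Of the 953 regions, 166 were called in all 6 libraries (17.4%, where 23.3% of all regions of the series were), 253 in 2 to 5 libraries and 534 in a single one. The regions of replicate 3 libraries alone numbered 439, or 46.1% of the segment's regions, where 9.28% of all regions of the series were of this kind. These 2 shares follow from how the segment was chosen, and nothing is read from them. Among the 439, insulin replicate 3 alone had 230, untreated replicate 3 alone had 189 and both had 20. The segment thus held 6.95% of the 6319 such regions in the series and 1.04% of the 15887 regions called in all 6 libraries.

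The regions of replicate 3 alone, for which the segment was chosen, had a density of 21.9 per Mb in the segment and 1.04 per Mb in the comparison stretch, a ratio of 21.2. This ratio holds against that stretch only, since other bins of 20 Mb also held many such regions. Where the segment had 439, the bins of chromosome 2 from 160000001 and 180000001 had 241 and 190. The bin of chromosome 20 from 40000001 had 186. Regions with a call in any replicate 1 or 2 library had a density of 25.7 per Mb and 27.4 per Mb, a ratio of 0.940. Regions called in all 6 libraries had 8.30 per Mb and 6.91 per Mb, a ratio of 1.2. Regions called in one replicate 1 or 2 library and nowhere else were less dense in the segment, with 5.75 per Mb against 7.67 per Mb.

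Insulin replicates 1, 2 and 3 had 400, 394 and 509 peaks in the segment, and untreated replicates 1, 2 and 3 had 393, 300 and 433. As a share of the list these were 0.830%, 0.874% and 1.85% with insulin and 0.879%, 0.947% and 1.66% without. Both replicate 3 lists were above the other 4, and the treatments overlapped. The number of peaks per Mb, divided by that of the comparison stretch, was 2.31 in insulin replicate 3 and 2.11 in untreated replicate 3. In the other 4 lists it lay between 0.917 and 1.1.

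**Figure D1:**
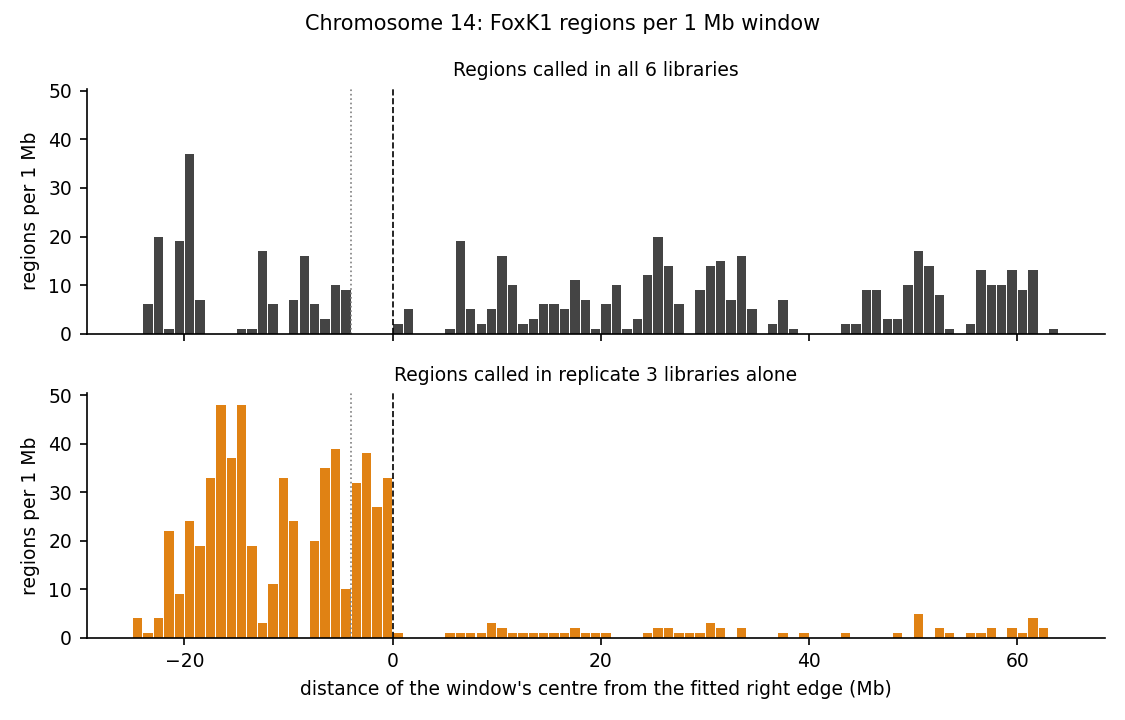
Regions per 1 Mb window along chromosome 14, against the distance of the window's centre from the fitted right edge in Mb. The upper panel counts regions called in all 6 libraries and the lower panel regions called in replicate 3 libraries alone. The dashed line is the fitted edge and the dotted line the end of the segment. The lower counts reach 48 per window to the left of the edge and at most 5 to its right, while shared regions occur on both sides of it.

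The regions called in all 6 libraries, referred to as shared sites, had more fragments at the summit in the segment than in the comparison stretch in each library. The median site had 106, 148 and 54.5 fragments in insulin replicates 1, 2 and 3 and 156, 98.0 and 55.0 in untreated replicates 1, 2 and 3. In the comparison stretch the medians were 58.0, 80.0 and 27.0 with insulin and 81.0, 48.0 and 27.0 without. The ratio of the medians lay between 1.83 and 2.04 in all 6 libraries.

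The background at these sites was raised further. Its median in the segment was 11.2, 17.4 and 8.25 fragments in insulin replicates 1, 2 and 3 and 26.4, 20.4 and 11.4 in untreated replicates 1, 2 and 3. The comparison stretch had 4.55, 7.15 and 3.02 with insulin and 11.6, 8.14 and 3.8 without. The ratios were 2.46, 2.44 and 2.73 with insulin and 2.28, 2.51 and 3.0 without, a description of the value on which the segment was chosen. Between 153 and 166 of the 166 sites, depending on the library, had a background above the median of the comparison stretch.

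The fold of the shared sites was therefore a little lower in the segment. Its median was 9.36, 8.50 and 5.80 in insulin replicates 1, 2 and 3 and 5.77, 4.64 and 4.79 in untreated replicates 1, 2 and 3. The comparison stretch had 11.0, 10.0 and 6.49 with insulin and 6.88, 5.48 and 5.38 without. In the segment every insulin median was above every untreated one, if barely for insulin replicate 3 and untreated replicate 1, while these 2 libraries had the opposite order in the comparison stretch. The ratio of segment to comparison stretch lay between 0.839 and 0.894, and 36.1% to 43.4% of the sites had a fold above the comparison median. The deposited significance went the other way, since it grows with the number of fragments. The median −log10 p was 69.2, 86.3 and 25.5 in insulin replicates 1, 2 and 3, where the comparison stretch had 43.7, 54.6 and 15.8. In untreated replicates 1, 2 and 3 it was 67.5, 38.1 and 22, where the comparison stretch had 40.5, 22 and 13.4.

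**Figure D2:**
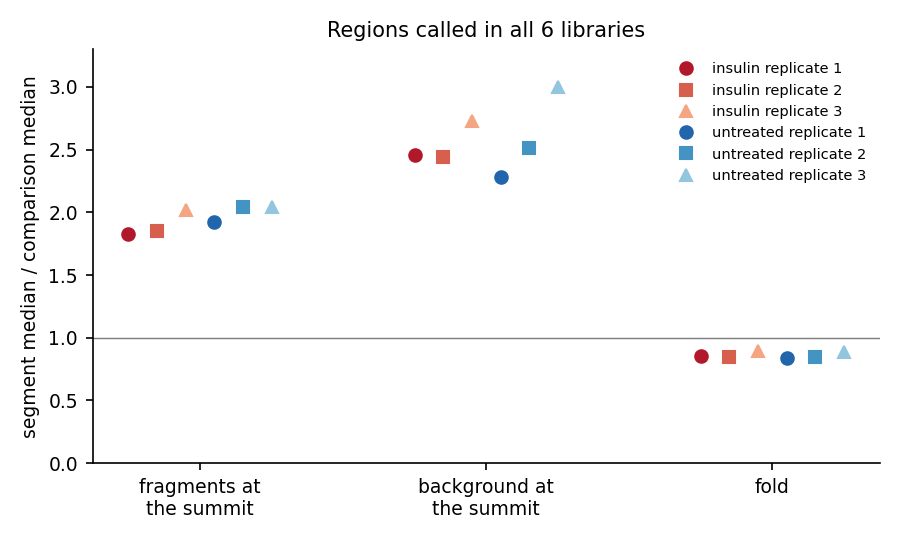
Median of the shared sites in the segment divided by the median of the shared sites in the comparison stretch, for fragments, background and fold, with 1 point per library. Ratios for fragments lie between 1.83 and 2.04, for background between 2.28 and 3.0, and for fold between 0.839 and 0.894. The horizontal line marks a ratio of 1.

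Ranked by significance within a list, the median percentile of a shared site of the segment was between 83.2 and 90.0, depending on the library, and that of a shared site in the comparison stretch was between 66.7 and 81.8. Against the genome, cut into bins of 20 Mb with at least 20 shared sites each, the segment ranked 1 of 152 bins for background and for fragments in all 6 lists. For fold it ranked between 122 and 141 of 152. The next bin by background in both insulin replicate 1 and insulin replicate 2 began at 20 Mb on chromosome 20, with 8.53 and 13.8 fragments.

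The summits of the shared sites were compared between libraries. Over the 15 pairs of libraries, summits of one site were a median of 18.5 to 43.5 bp apart in the segment and 22 to 44 bp in the comparison stretch. In the segment 55.4% to 84.3% of the sites, depending on the pair, had summits within 50 bp, and in the comparison stretch 55.1% to 77.7%. At the 3 weakest shared sites the summits of the 6 libraries spread over 408 to 682 bp. The median shared site was 1200.0 bp wide in the segment and 1120.5 bp in the comparison stretch. For regions of replicate 3 alone the widths were 389 bp and 343 bp.

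The strongest shared site, by its mean percentile over the 6 lists, was chr14:35008434-35010154. Its fold was 50.7, 49.0 and 24.0 in insulin replicates 1, 2 and 3 and 22, 23.7 and 11.9 in untreated replicates 1, 2 and 3. These came from 836, 1248 and 399 fragments with insulin and 1064, 673 and 341 without, over backgrounds of 15.5, 24.5 and 15.7 and of 47.4, 27.5 and 27.7. It ranked between 15 and 34 in the 6 lists, and its summits lay within 2 bp of each other. All 3 insulin folds were above the untreated ones here, while untreated replicate 1 had the second-highest number of fragments and the highest background.

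The site chr14:24582589-24584836 followed, with a fold of 35.1, 31.3 and 31.3 in insulin replicates 1, 2 and 3 and of 17.3, 14.8 and 19.1 in untreated replicates 1, 2 and 3. It ranked between 28 and 43. Every insulin fold was above every untreated one here too, as was so of the median shared site, and nothing about insulin is read from sites chosen for their strength. The next 2 sites were chr14:31698614-31699832 and chr14:31436373-31437150. The first had folds of 50.1, 35.4 and 16.2 with insulin and 20.9, 18.2 and 11.7 without. The second had folds of 29.6, 28.7 and 14.5 with insulin and 22.9, 17.1 and 13.1 without. In both of these the fold of insulin replicate 3 was below at least one untreated fold, so the treatments overlapped.

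Of the 10 strongest shared sites, the other 6 were chr14:23066143-23068103, chr14:31727090-31728137, chr14:23372062-23372982, chr14:24910927-24912651, chr14:24352937-24353992 and chr14:35451204-35452608. All 10 had a mean percentile of at least 99.1, so sites of high significance in the whole series lay inside the segment. Significance grows with the number of fragments, which was raised in the segment, and these sites were not ranked by fold. The weakest shared sites were of another kind. At chr14:23526605-23527790, the weakest of all, the fold was 3.31, 2.35 and 2.49 in insulin replicates 1, 2 and 3 and 1.93, 2.23 and 2.13 in untreated replicates 1, 2 and 3. The next 2 were chr14:21077470-21078507 and chr14:25518883-25519778, with mean percentiles of 21.4 and 22.5. A call in all 6 libraries thus did not by itself mean a high fold in the segment. Nor did it mean 1 common peak. At chr14:21077470-21078507 the peak of insulin replicate 1 began at 21078271 and that of insulin replicate 2 ended at 21077950. These 2 peaks were merged only through overlapping peaks of untreated lists.

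Of 244 regions in the segment that all 4 replicate 1 and 2 libraries called, 68.0% were called by both replicate 3 libraries and 42 (17.2%) by neither. In the comparison stretch these shares were 62.9% and 19%, the latter from 119 of 626 regions. The strongest of the 42 was chr14:24443100-24443785. Its fold was 14.4 and 7.75 in insulin replicates 1 and 2 and 17.4 and 4.57 in untreated replicates 1 and 2, from 50 to 114 fragments. This single region was named for its strength, and the share missed by both replicate 3 lists was close to that outside the segment.

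The regions of replicate 3 alone rested on few fragments. Insulin replicate 3 had 250 peaks in them, 49.1% of its peaks in the segment, and untreated replicate 3 had 209, or 48.3%. In the comparison stretch the shares were 4.94% and 4.95%. The median peak had 15 fragments over a background of 4.0 in insulin replicate 3, and 17 over 5.32 in untreated replicate 3. Their median fold was 3.01 and 2.77, with a range of 2.27 to 4.8 and of 1.92 to 4.45.

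Such calls ranked low within their own lists. Their median percentile by significance was 12 in insulin replicate 3 and 12.7 in untreated replicate 3. Of them, 84.8% and 81.3% lay below the 25th percentile. Their median −log10 p was 4.86 and 4.64. The few such calls of the comparison stretch had a median of 12 fragments in both lists, a fold of 3.55 and 2.96 and a −log10 p of 5.34 and 4.26.

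The background under these calls, a value used in the choice of the segment, is given as a description. In the comparison stretch 67.7% of them in insulin replicate 3 and 86.2% in untreated replicate 3 lay at the floor of the list. In the segment 5.20% and 1.91% did. Their median background in the segment was 1.51 and 1.57 times the floor. Over all peaks of these 2 lists, 2.55% and 0.924% were at the floor in the segment, and 37.1% and 45.1% in the comparison stretch.

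Most of the shared sites had a higher significance than any of these weak calls. Shared sites had to be called in all 6 libraries, and weak calls in replicate 3 libraries alone. A higher significance of the shared sites is therefore partly built into these definitions, and the values that follow are a description only. In insulin replicate 3 the highest −log10 p of a weak call was 10.1, and 143 of the 166 shared sites (86.1%) were above it. In untreated replicate 3 it was 16.1, and 105 of 166 (63.3%) were above it. None of the 250 weak calls of insulin replicate 3 and 1 of the 209 of untreated replicate 3 were above the lower quartile of the shared sites. The lowest shared sites still overlapped the weak calls, since they reached down to a −log10 p of 3.92 and 3.03. With only peaks of a −log10 q of at least 5, the segment had 14 regions of replicate 3 alone in place of 439, and 139 regions called in all 6 libraries in place of 166.

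**Figure D3:**
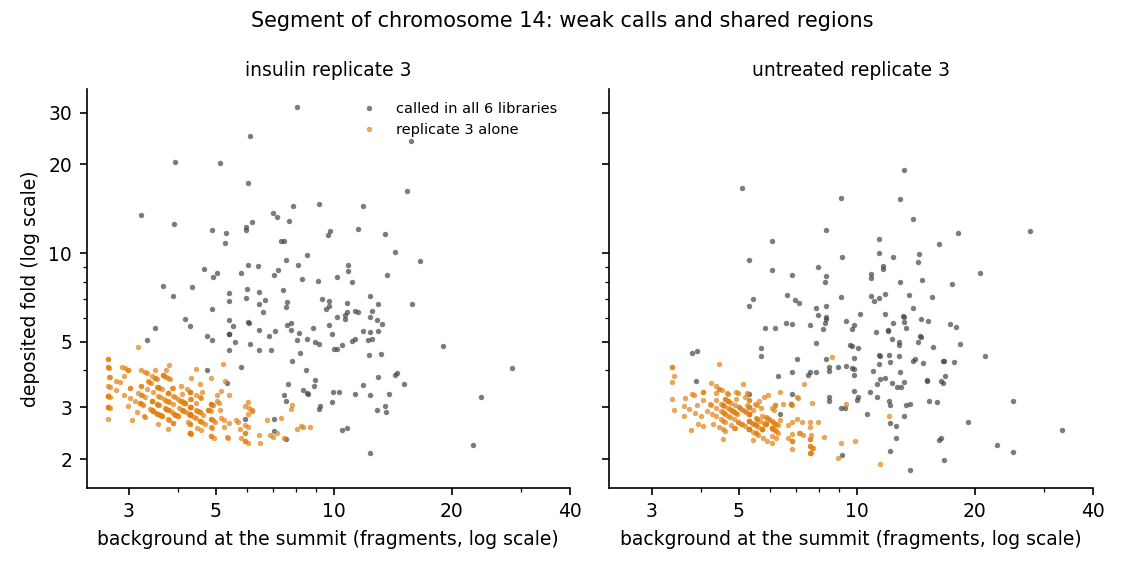
Deposited fold against the background at the summit in fragments, both on log scales, for the 166 shared sites and for peaks in regions of replicate 3 alone. Insulin replicate 3 is on the left and untreated replicate 3 on the right, with 1 point per site or peak. The weak calls form a band of low fold, 1.92 to 4.8 over both lists, that slopes down as the background rises, and the shared sites lie mostly above it and at higher background.

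The 20 regions that both replicate 3 libraries called were 4.56% of the 439. The share was 1.69% in the comparison stretch, from 1 of 59 regions, and 4.07% over the 6319 regions of the series. The 20 regions had a median distance of 136 bp between the summits, with a maximum of 939 bp. From a weak call of insulin replicate 3 the nearest weak call of untreated replicate 3 was a median of 15688 bp away, and 3.20% lay within 100 bp. From a weak call of untreated replicate 3 the distance was 11504 bp, and 3.83% lay within 100 bp. Shared sites were farther off, at a median of 311162 and 289940.0 bp. Weak calls within 10 kb of a shared site made up 10.0% and 8.61%.

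The strongest region that both replicate 3 libraries called was chr14:37798244-37799355. It had 26 fragments over a background of 7.82 in insulin replicate 3, a fold of 3.06, and 42 fragments over 8.67 in untreated replicate 3, a fold of 4.45. Its percentiles were 30.9 and 74.0, and its summits lay 38 bp apart. At chr14:24527022-24528154 the order was the opposite, with a fold of 4.8 with insulin and 3.01 without. The strongest region of insulin replicate 3 alone was chr14:38265953-38266547, with 25 fragments and a fold of 4.19. That of untreated replicate 3 alone was chr14:37591557-37591895, with 29 fragments and a fold of 3.6.

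In windows of 1 Mb, the weak calls were on average denser where shared sites were few, though the windows overlapped. The 7 windows of the segment with at most 1 shared site held 240 of the 439 regions of replicate 3 alone (54.7%), or 34.3 per window, with a range of 19 to 48. The other 13 windows held 199, or 15.3 per window, with a range of 0 to 39, and 163 of the 166 shared sites. Over the 20 windows Pearson's r of the 2 counts was -0.474, a description only, since windows share libraries and a shared site occupies sequence that cannot be a weak call. In the comparison stretch the 12 windows with at most 1 shared site held 6 regions of replicate 3 alone. A lack of shared sites did not come with weak calls there.

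The 2 windows with the most weak calls, 48 each, were chr14:27000001-28000000 with no shared site and chr14:29000001-30000000 with 1. From 26000001 to 29000000 the 3 windows had 33, 48 and 37 weak calls and no shared site. The window with the most shared sites was chr14:24000001-25000000, with 37, and it also had 24 weak calls. At chr14:35000001-36000000 there were 16 shared sites and no region of replicate 3 alone. In 16 of the 20 windows the number was above the highest of any window of the comparison stretch, which was 5.

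The raised background was seen in each list window by window. In the windows with at least 5 peaks, the median background was above that of the median comparison window in 15 of 15 windows of insulin replicate 1, 15 of 15 of insulin replicate 2 and 20 of 20 of insulin replicate 3. Without insulin it was so in 14 of 14, 14 of 14 and 20 of 20. It was above even the highest comparison window in 14, 15 and 15 windows with insulin and in 11, 13 and 19 without. The level was not even, since in insulin replicate 1 these windows ranged from 4.15 to 10.5 fragments and in untreated replicate 3 from 4.52 to 14.8.

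**Figure D4:**
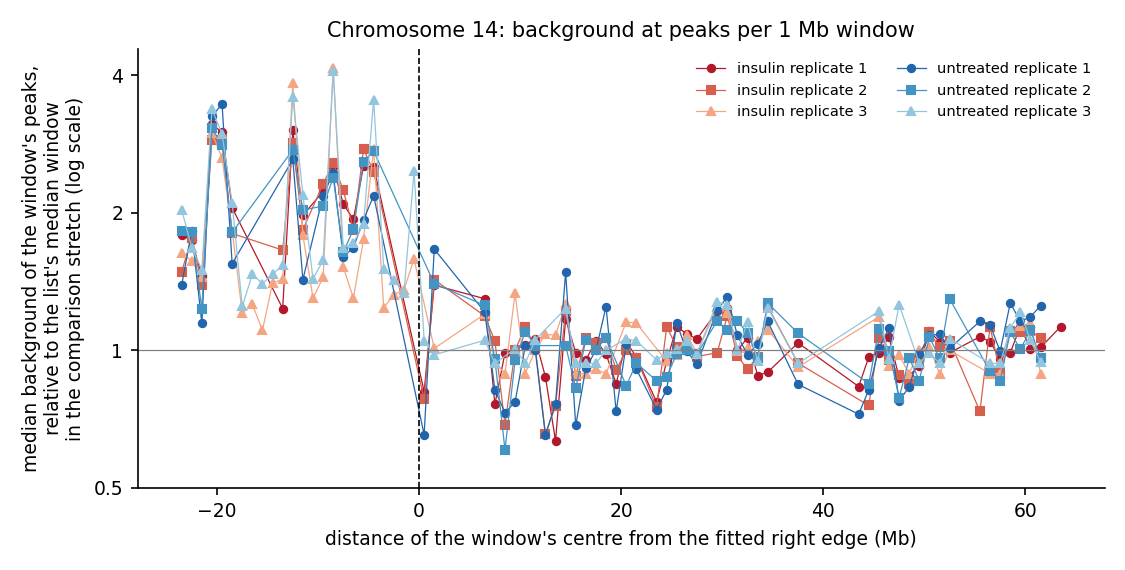
Median background at the peaks of a 1 Mb window, divided by the list's median over windows of the comparison stretch, on a log scale, against the distance of the window's centre from the fitted right edge in Mb. Each line is 1 library, and only windows with at least 5 peaks of that library are drawn. In the segment every point lies above 1; past the edge the points scatter around 1.

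The left end of the segment could be followed only coarsely, because few peaks lie there. The last region before the lower bound, chr14:19857815-19858308, was called in 4 lists with backgrounds of 1.94, 3.91 and 2.66 in insulin replicates 1, 2 and 3 and 4.76 in untreated replicate 1. The first region inside, chr14:20572171-20572545, was called in insulin replicate 2 alone with a fold of 3.46 and a background of 3.91. The first shared site, chr14:20773569-20774300, had backgrounds of 7.87, 10.9 and 5.93 in insulin replicates 1, 2 and 3 and 16.6, 12.8 and 9.11 in untreated replicates 1, 2 and 3. The background was raised at the first shared site, but this site does not place the left rise. Peaks before it, from 20704041 to 20748694, had 5.45 and 3.65 in insulin replicate 1. They had 9.02 and 8.17 in insulin replicate 2 and 11.3 in untreated replicate 1. The windows from 20 to 22 Mb had only 1 and 4 regions of replicate 3 alone. In the window before the lower bound there were 4 such regions, all from untreated replicate 3. Their background was 8.35 at 19432910 and 3.39, 3.88 and 4.07 at the others.

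The upper bound of the rule, 40000000, was not where the weak calls ended. The regions just inside and just outside it were chr14:39996138-39996516, called in insulin replicate 2 alone with a fold of 2.63, and chr14:40044975-40045256, called in untreated replicate 3 alone with a fold of 2.25. The 4 windows that followed had 27 to 38 regions of replicate 3 alone, 130 in all, which is 92.9% of the 140 regions there. None of the 140 was called in all 6 libraries. The density of these weak calls was 32.5 per Mb, 31.4 times that of the comparison stretch.

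A fit of 2 constant levels to the regions of replicate 3 alone per window, by least squares, placed the right edge at 44000000. The levels were 22.9 and 0.953 regions per window. The window before the edge had 33 such regions and the window after it 1, and none of the 64 windows after it had more than 5. The last shared site before the edge was chr14:39900257-39903123, with a fold of 21.9, 22.9 and 20.2 in insulin replicates 1, 2 and 3 and 12.7, 11.0 and 10.0 in untreated replicates 1, 2 and 3. The first one after it was chr14:44248007-44250272, with folds of 9.15, 13.2 and 6.29 with insulin and 11.1, 8.76 and 8.20 without. The strongest peak of each list stood for this region, and these summits spread over 1485 bp. Its folds and backgrounds are therefore not all of 1 common peak. The background was 12.3, 20.1 and 5.12 fragments at the site before the edge and 3.70, 4.08 and 2.66 at the site after it with insulin. Without insulin it was 28.7, 22.6 and 11.4 before and 5.86, 4.94 and 3.39 after. These 2 sites lie on either side of the stretch between the segment and the edge, so they do not place the fall at the edge itself. From the last window before the edge to the first one after it, the median background went from 4.74 to 2.66 in insulin replicate 3 and from 8.93 to 3.8 in untreated replicate 3. In insulin replicates 1 and 2 it went from 2.78 to 2.73 and from 3.40 to 4.25, and in untreated replicate 1 from 3.78 to 4.94, with 2 or 3 peaks before the edge and 6 after it. The lower background just past the edge was thus seen in the replicate 3 lists and not in these 3. The 2.66 of insulin replicate 3 was the floor of its list. Between the segment and the edge, insulin replicates 1 and 2 already had a median window background of 3.08 and 5.79. The comparison stretch had 3.32 and 5.28. Untreated replicate 1 had 4.16 against 7.52, and these lists had only 4, 7 and 6 peaks there. Insulin and untreated replicate 3 had 4.01 and 5.31, against 2.98 and 3.57.

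Peak by peak, the weak calls stopped a little before that window's end. The last one of insulin replicate 3 had its summit at 43789892, with 26 fragments over a background of 8.29, and the last one of untreated replicate 3 at 43778128, with 24 over 8.93. The next weak call was 7559732 bp on in insulin replicate 3 and 629855 bp on in untreated replicate 3. Before the edge, from 22 Mb on, the median spacing had been 32708 and 34705 bp, and in the comparison stretch it was 1254160 and 997072 bp. The last 10 weak calls of insulin replicate 3 and the last 9 of untreated replicate 3 had a median background of 6.58 and 9.67 fragments. The medians of the whole stretch between the segment and the edge were 3.96 and 5.40.

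The lists of replicates 1 and 2 had few peaks there, and these did not all behave alike. Between the last weak call and the next peak of any list lay 50032 bp. At 43531915 insulin replicate 1 had a peak with a background of 3.95, and at 43839930 one with 1.61. Insulin replicate 2 had 8.85 at 43531906 and 2.38 at 43839924. The peak of untreated replicate 1 at 43749947 had 3.57, which is close to the 3.99 of its peak at 43961854, so this library showed no fall between these 2 peaks. Untreated replicate 2 had a single peak between the segment and the edge. These peaks near the edge were chosen after their values were seen, and each rests on 1 peak of 1 library.

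Whether insulin changed FoxK1 calls in the segment was tested over the 3 and 3 libraries, where the smallest p an exact test can give is 0.100. The segment had 434 ± 64.7 peaks with insulin and 375 ± 68.2 without (SD, n = 3 each), a difference of 59.0 (two-sided exact permutation test, p = 0.400). As a share of the list it was 1.18% ± 0.577 and 1.16% ± 0.432 (SD, n = 3 each), a difference of 0.0227 percentage points (exact permutation p = 1.00). The difference in peaks was 1.67 with lists of equal length, 21.7 without insulin replicate 3 and 21.3 without untreated replicate 2. Neither difference was larger than the spread between libraries, and this does not show that the treatments act alike. That spread includes the difference between replicate 3 and the other libraries. Between libraries of the same number, insulin had more peaks in 3 of 3 pairs and a larger share of the list in 1 of 3.

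The ratio of the segment to the comparison stretch did not differ between the treatments beyond the spread between libraries either. For the fold of shared sites it was 0.866 ± 0.0247 with insulin and 0.858 ± 0.0274 without (SD, n = 3 each; two-sided exact permutation p = 0.50). For their background it was 2.54 ± 0.160 and 2.6 ± 0.367 (SD, n = 3 each; exact permutation p = 0.800). With 4 such comparisons made, the Benjamini-Hochberg adjusted p was 1.00 for each.

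One region of the segment was called in all 3 insulin libraries and in no untreated one, 0.105% of its regions, where 0.376% of all regions of the series were. This was chr14:27067019-27068255, with folds of 4.11, 3.15 and 3.98 from 31, 44 and 18 fragments in insulin replicates 1, 2 and 3. One region was called in all 3 untreated libraries and in no insulin one, also 0.105%, where 0.0352% of the series were. This was chr14:34656153-34656973, with folds of 3.63, 2.67 and 2.27 from 31, 24 and 16 fragments in untreated replicates 1, 2 and 3. Their mean percentiles were 35.5 and 14.1, so neither was among the strong sites. In the comparison stretch the counts were 8 and 1. These counts hang on the replicate 3 lists. Without insulin replicate 3 there were 19 insulin-only regions (2.62%, series 3.64%) and 1 untreated-only region (0.138%, series 0.0458%). Without replicate 3 in both treatments, a choice made after seeing the data, there were 22 insulin-only regions (4.24%, series 4.38%) and 5 untreated-only ones (0.963%, series 0.631%). The insulin-only shares were close to or below those of the series, and the untreated-only shares rest on 1 to 5 regions.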

How the data were processed

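FoxK1 chromatin immunoprecipitation libraries of HepG2 cells were compared, 3 with insulin and 3 without. Groups and replicate numbers came from the titles and treatment labels. The submitters' processing notes name fastp, Bowtie2, SAMtools and MACS2 and the build hg19, without versions. The calling threshold and any use of the inputs were not given in the sources used here. Peaks were called per library by the authors, as the peak names in the deposited lists show. The deposited fold is a linear ratio of summit to background, the deposited −log10 p and −log10 q are significances within a list, and the deposited score was the −log10 p multiplied by 10, to within 1, for 100.0% of peaks in every list.

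From the fold, taken as fragments plus 1 over background plus 1, and the Poisson −log10 p, the fragments and background at each summit were solved. Whole numbers of fragments gave back the deposited −log10 p for 100.0% of peaks in every list. The tolerance was 0.000500, and it grew in proportion above a −log10 p of 10. Peaks overlapping by 1 bp or more were merged over the genome. A percentile is the rank of a peak by −log10 q in its list. A background within 0.200% of the lowest of a list counted as its floor. Named regions were the 10 strongest and 3 weakest shared sites by mean percentile, the strongest regions of replicate 3 libraries, the regions of 1 treatment only, and those beside the bounds of the rule and the fitted edge. The strongest region that both replicate 3 libraries lacked and the peaks beside the edge were added after their values were seen, as were the window classes. Members and lists were chosen with earlier results of these data known.

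Insulin was compared with no insulin by exact permutation over all 20 assignments of the libraries. Alternatives left out libraries, cut the lists to an equal length or to a −log10 q of 5 and above, defined shared sites otherwise, and used other windows or a replicate block. Steps were tested on simulated data. For the edge these were Poisson counts around 2 constant levels. The real windows of the segment were more uneven, with 0 to 48 regions of replicate 3 alone. The simulation therefore does not show how well the edge is placed here. Python 3.11.15, numpy 2.4.6, pandas 2.3.3, scipy 1.17.1 and matplotlib 3.10.9 were used.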

Additional observations from a re-analysis of the deposited data

Results flagged for a closer look

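Between 40000001 and 44000000 on chromosome 14, outside both stretches that were compared, the lists held 130 regions of replicate 3 libraries alone, 68 in insulin replicate 3, 56 in untreated replicate 3 and 6 in both. They stand out because the stretch belongs to no comparison and has 32.5 such regions per Mb, against 1.04 per Mb in the comparison stretch. Their median peak had 14 fragments over a background of 3.96 in insulin replicate 3 and 17 over 5.40 in untreated replicate 3, and none lay at the floor of its list. The other 4 lists had 4, 7, 6 and 1 peaks there.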

How the results depend on the processing

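The difference in peaks between insulin and no insulin kept its direction under every alternative run and passed no test; it was 21.3 to 87.8 with a library left out, 45.7 with a −log10 q of at least 5 and 1.67 with lists of equal length. The replicate numbers were not taken as pairing the libraries, because the deviations of same-numbered libraries correlated at 0.101, 0.0606 and 0.266 and insulin replicate 2 was closer to untreated replicate 1 (0.122); with a replicate block the difference stayed 59.0 (p = 0.250 by exact sign flips, the lowest that 3 pairs allow) and no call changed. The highest of these correlations, 0.266, was that of the replicate 3 libraries. The test without a block therefore holds the difference between replicate 3 and the other libraries in its spread. With the block, the number of peaks and the fold ratio were each higher with insulin in all 3 pairs (p = 0.250 by exact sign flips for each). The differences other than that in peaks were near 0 and changed sign under some alternatives. The share of the list ranged from -0.310 (without insulin replicate 3) to 0.272 (without untreated replicate 3) percentage points, and was -0.0275 with a −log10 q of at least 5. The fold ratio ranged from -0.0270 (without untreated replicate 2) to 0.0244, and was -0.0113 with a −log10 q of at least 5. The background ratio ranged from -0.244 to 0.184 (without untreated replicate 3). Leaving out replicate 3 in both treatments, chosen after seeing the data, gave a difference of 50.5 peaks, -0.0613 for the share and 0.0901 for the background ratio. It also gave 22 insulin-only and 5 untreated-only regions.

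Regions of replicate 3 alone were 209 without insulin replicate 3, 253 without untreated replicate 3, at most 448 without any other library, 14 with a −log10 q of at least 5 and 569 up to the right edge. Regions in all 6 libraries were 88 when the peaks of each library together had to cover 50% of the region. Insulin-only regions were 1 to 19 with a library left out (19 without insulin replicate 3) and untreated-only regions 1 to 5 (5 without untreated replicate 3). Both were 0 with a −log10 q of at least 5 and with lists of equal length, and untreated-only regions were 0 with summits within 100 bp. The right edge stayed at 44000000 with any 1 library left out and with other windows, and was 43000000 with a −log10 q of at least 5. From the median background per window it was 44000000 in untreated replicate 3, 42000000 in insulin replicate 1 and untreated replicate 2, and 40000000 in insulin replicates 2 and 3 and untreated replicate 1. The cause was not tested where a value moved. Depth is unknown, so calls missing from a list may be missing for lack of reads.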
